A study of Mus musculus with 16 samples.

Results

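The alpha and beta crystallins were followed in the retina of C57BL/6 mice of both sexes at 2 ages. The 8 genes Cryaa, Cryab, Cryba1, Cryba2, Cryba4, Crybb1, Crybb2 and Crybb3 were matched on the gene name in the probe annotation, which gave 9 probes, 2 of them for Cryba1. They are 8 of 17847 gene symbols on the array. All 9 probes were detected on 16 of 16 arrays and all 9 passed the filter on dim probes, so no member was left out. C57BL/6 is a common inbred laboratory strain, and the mice were aged with no intervention.

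Crystallins make up most of the soluble protein of the eye lens. The alpha crystallins Cryaa and Cryab belong to the small heat shock proteins, chaperones that hold other proteins in solution, and the beta crystallins are structural proteins that share a fold with the gamma crystallins. Acidic beta crystallins (Cryba1, Cryba2, Cryba4) and basic ones (Crybb1, Crybb2, Crybb3) pair with each other in lens fibre cells. Transcripts of Cryab and Cryba1 are also known from the retina itself, in glia, neurons and the pigment epithelium, so the arrays also allow the question whether these 2 genes move with the lens ones.

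RNA of whole retina was hybridised to Illumina BeadChips, arrays of beads that each carry a probe and light up where labelled RNA has bound. The 4 groups, each with 4 arrays, were aged females (24 months), young females (3 months), aged males (24 months) and young males (3 months). The labels of male aged 1 disagree, with aged in its title and 12 months in its age field. It was kept as aged, and the crystallin comparisons that include it are also given without it. Those of other genes are given only with it. Nothing in the labels ties each array to an animal of its own, and the p-values thus measure a spread that may be technical. The arrays had mean intensities of 157.8 to 240.3, with 52.6% to 57.0% of probes detected. The arrays lay on 5 slides of 1 to 5 arrays. Of 7 rod genes checked as markers of the labelled tissue, 6 were detected on 16 arrays, among them Gnat1, the rod transducin subunit, at log2 12.54 to 13.80 and Pde6b, a rod phosphodiesterase subunit, at log2 13.30 to 13.65, and Nr2e3 was detected on none. In RNA of whole tissue, fewer cells of a type and less RNA per cell cannot be told apart.

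Promoters are shown for 5 members, picked with their levels on the arrays known. Any link between these sequences and the levels was not tested. The sequences run from 250 bases before to 50 bases after the gene start, as given by RefSeq for GRCm38.p6. All members but Cryab had an entry, 7 of 8. Capitals mark TGCTGA or its reverse complement TCAGCA, the core that Maf-family factors, known regulators of crystallin genes in lens, recognise. Cryaa (chr17:31677681-31677980, plus strand), Cryba1 (chr11:77725244-77725543, minus strand), Cryba4 (chr5:112252469-112252768, minus strand), Crybb1 (chr5:112255570-112255869, plus strand) and Crybb2 (chr5:113070068-113070367, minus strand) read as follows.
Cryaa: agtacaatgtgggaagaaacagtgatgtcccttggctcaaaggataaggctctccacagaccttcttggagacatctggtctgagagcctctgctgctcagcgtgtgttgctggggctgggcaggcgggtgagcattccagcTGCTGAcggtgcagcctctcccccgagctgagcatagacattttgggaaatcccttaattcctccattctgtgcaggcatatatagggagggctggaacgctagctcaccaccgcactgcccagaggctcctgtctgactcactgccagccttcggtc
Cryba1: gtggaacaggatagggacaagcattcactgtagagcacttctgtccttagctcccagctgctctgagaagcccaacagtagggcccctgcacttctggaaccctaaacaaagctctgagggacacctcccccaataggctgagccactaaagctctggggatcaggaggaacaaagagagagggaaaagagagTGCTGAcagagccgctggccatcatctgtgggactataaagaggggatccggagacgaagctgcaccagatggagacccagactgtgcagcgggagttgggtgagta
Cryba4: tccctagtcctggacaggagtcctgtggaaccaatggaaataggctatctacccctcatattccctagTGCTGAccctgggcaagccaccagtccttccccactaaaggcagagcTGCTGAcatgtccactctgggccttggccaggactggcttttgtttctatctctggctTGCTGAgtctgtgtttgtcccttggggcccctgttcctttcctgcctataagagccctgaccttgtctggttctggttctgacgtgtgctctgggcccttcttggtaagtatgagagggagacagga
Crybb1: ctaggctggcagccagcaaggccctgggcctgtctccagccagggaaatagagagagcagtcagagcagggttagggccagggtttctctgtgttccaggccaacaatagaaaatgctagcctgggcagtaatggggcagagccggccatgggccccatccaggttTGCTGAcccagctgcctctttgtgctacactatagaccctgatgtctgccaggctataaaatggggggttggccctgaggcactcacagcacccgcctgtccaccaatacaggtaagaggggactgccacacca
Crybb2: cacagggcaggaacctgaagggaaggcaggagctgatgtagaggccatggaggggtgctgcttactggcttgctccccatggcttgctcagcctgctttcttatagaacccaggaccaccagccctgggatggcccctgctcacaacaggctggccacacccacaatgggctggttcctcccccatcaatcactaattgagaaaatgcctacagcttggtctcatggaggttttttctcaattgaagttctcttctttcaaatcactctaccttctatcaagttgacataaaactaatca

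The motif was present in 6 of 7 crystallin promoters on either strand, against 19.5% of all 32851 promoters of the same length. Its first base lay at -108 from the gene start in Cryaa, -57 in Cryba1, -84 in Crybb1 and -67 in Crybb3, at -149 in Cryba2, and at -182, -135 and -77 in Cryba4. In Crybb2 the letters were not found in this window. The heat shock element core, GAA and TTC with any 2 bases between them, read on both strands at once because it is its own reverse complement, was in 0 of 7 and in 7.86% of all promoters. A match is a description of letters and not a binding site. Cryba4 and Crybb1 are neighbours on chromosome 5, as are Crybb2 and Crybb3.

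Levels are log2 normalised intensities of 1 probe each, and levels of different probes are not set against each other. The spread of the crystallins over arrays was wide. The standard deviation (SD) over the 16 arrays was 0.42 to 0.95 for 8 of the 9 probes and 0.17 for Crybb2, and the median of the 15016 probes tested was 0.16. For those 8 probes, 0.37% to 2.78% of tested probes varied more, and for Crybb2 it was 42.4%. Female aged 4 gave the lowest value of all 16 arrays for each of the 9 probes.

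**Figure D1:**
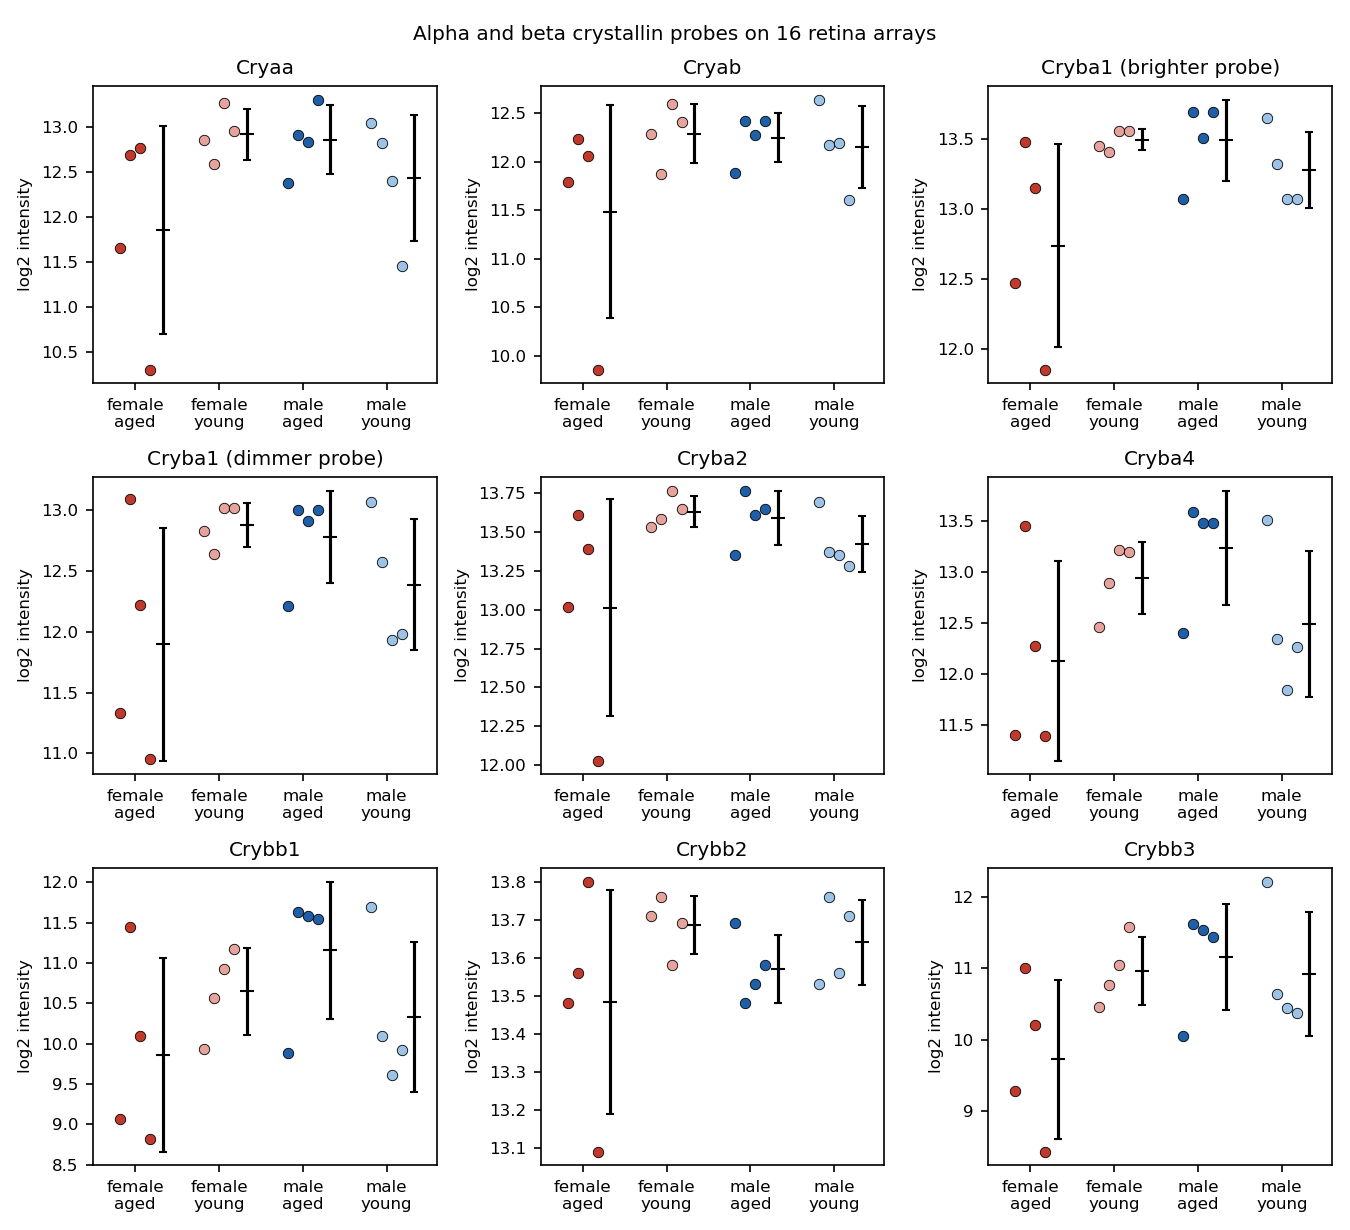
Log2 normalised intensity of each crystallin probe (vertical axes, not shared) on the 4 arrays of each group (points), with the group mean and SD beside them (bars, n = 4). Female aged 4 is the lowest point of all 9 panels, and the 4 groups overlap in each.

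Among the alpha crystallins, Cryaa, known as the lens form, read 11.66, 12.69, 12.76 and 10.31 in aged females, against 12.85, 12.59, 13.26 and 12.95 in young females. Aged males read 12.37, 12.91, 12.83 and 13.30, against 13.04, 12.82, 12.40 and 11.46 in young males. The low arrays were female aged 4, male young 4 and female aged 1, so a low value was seen in aged females and in young males, and the groups overlapped. From lowest to highest array Cryaa spanned 7.93-fold.

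Cryab, the alpha crystallin that is also made in glia, muscle and heart, read 11.79, 12.23, 12.06 and 9.86 in aged females, against 12.28, 11.87, 12.59 and 12.41 in young females. Aged males read 11.88, 12.42, 12.27 and 12.42, against 12.64, 12.17, 12.19 and 11.61 in young males. Apart from female aged 4, all arrays lay between 11.61 and 12.64, and the groups overlapped. Its span of 6.85-fold thus rested on 1 array.

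Cryba1, the acidic beta crystallin known from retinal astrocytes and pigment epithelium, has 2 probes. The brighter probe read 12.47, 13.48, 13.15 and 11.85 in aged females, against 13.45, 13.41, 13.56 and 13.56 in young females. Aged males read 13.07, 13.69, 13.51 and 13.69, against 13.65, 13.32, 13.07 and 13.07 in young males. Young females were close together (SD 0.08), and 3 of the 4 aged females lay below all of them, while female aged 2 fell within their range. The dimmer probe read 11.33, 13.09, 12.22 and 10.95 in aged females, against 12.83, 12.64, 13.02 and 13.02 in young females. Aged males read 12.21, 13.00, 12.91 and 13.00 on it, against 13.07, 12.57, 11.93 and 11.98 in young males. Both probes put female aged 4 and female aged 1 lowest, and they correlated at r = 0.96 over the 16 arrays.

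Cryba2, an acidic beta crystallin of lens, read 13.02, 13.61, 13.39 and 12.03 in aged females, against 13.53, 13.58, 13.76 and 13.65 in young females. Its values in aged males were 13.35, 13.76, 13.61 and 13.65, against 13.69, 13.37, 13.35 and 13.28 in young males. Female aged 4 and female aged 1 were again lowest. Cryba4, the third acidic form, read 11.40, 13.45, 12.27 and 11.39 in aged females, against 12.46, 12.89, 13.21 and 13.19 in young females. Its values in aged males were 12.40, 13.58, 13.48 and 13.48, against 13.51, 12.34, 11.84 and 12.26 in young males. For Cryba4 the 5 highest arrays were male aged 2, male young 1, male aged 3, male aged 4 and female aged 2, at 13.45 to 13.58, and the other 11 lay between 11.39 and 13.21.

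Crybb1, a basic beta crystallin that marks differentiating lens fibres, read 9.07, 11.45, 10.10 and 8.82 in aged females, against 9.93, 10.57, 10.92 and 11.17 in young females. Its values in aged males were 9.88, 11.63, 11.58 and 11.54, against 11.69, 10.09, 9.61 and 9.92 in young males. The 5 highest arrays were those of Cryba4, at 11.45 to 11.69, and the other 11 lay between 8.82 and 11.17. Aged males therefore held 3 high arrays and 1 low one, and young males 1 high array and 3 low ones. Crybb3, another basic form, read 9.28, 11.00, 10.20 and 8.44 in aged females, against 10.46, 10.77, 11.04 and 11.57 in young females. Its values in aged males were 10.05, 11.62, 11.53 and 11.43, against 12.21, 10.64, 10.45 and 10.38 in young males. It spanned 13.6-fold between female aged 4 and male young 1, the widest of the 9 probes.

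Crybb2, the basic beta crystallin for which roles in retinal ganglion cells have also been described, read 13.48, 13.56, 13.80 and 13.09 in aged females, against 13.71, 13.76, 13.58 and 13.69 in young females. Its values in aged males were 13.69, 13.48, 13.53 and 13.58, against 13.53, 13.76, 13.56 and 13.71 in young males. Female aged 4 was low and the remaining arrays lay within 13.48 to 13.80. The span was 1.64-fold, or 1.85-fold in the authors' scaled values. Its deposited intensity ran from 7999 to 15062, where the brightest probe of an array read 11567 to 16578, and its rank by brightness ran from 1 to 26. The part of this position near the top of the scale in its small spread was not tested. Cryba2 and the brighter Cryba1 probe had best ranks of 2 and 4, and the part of this in their spread was not tested either.

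Aging in females was the first of the comparisons. All 9 crystallin probes averaged lower in aged than in young females, with a median log2 difference of -0.80, against -0.001 over all tested probes. None of the 9 passed limma's test at an adjusted p under 0.05, a threshold that 0.633% of tested probes passed. The 9 probes moved largely together, so a count among them does not stand for that many independent results. At an unadjusted p under 0.05, 6 of the 9 were lower, against 2.84% of tested probes that were lower. That count was 3 with intensity trend and robust variances, 3 without female aged 1 and 2 without female aged 4, and the exact permutation p (two-sided) of the 9 was 0.0857 to 0.314. No crystallin had aged and young females that did not overlap, where 1.53% of tested probes had aged females lower without overlap.

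In aged against young females, Crybb3 averaged 9.73 ± 1.11 and 10.96 ± 0.47 (SD, n = 4 each), a log2 difference of -1.23 (SE 0.50) with a limma adjusted p of 0.552. Cryaa averaged 11.85 ± 1.14 in aged and 12.91 ± 0.27 in young females, a difference of -1.06 (SE 0.43, limma adjusted p = 0.547). The brighter Cryba1 probe had the lowest adjusted p of the 9, 0.366 in limma, at -0.76 (SE 0.25), and its other probe stood at -0.98 (SE 0.35). Cryab differed by -0.80 (SE 0.37, limma adjusted p = 0.685), within the range of the lens forms. Cryba2 stood at -0.62, Cryba4 at -0.81, Crybb1 at -0.79 and Crybb2 at -0.21.

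Without female aged 4 the differences in females were -0.80 to -0.08, 2 of 9 had an unadjusted p under 0.05 and the lowest limma adjusted p was 0.651. Cryab then stood at -0.26, Cryaa at -0.54 and Crybb2 at -0.08. With slide as a fixed block the differences ran from -1.25 to -0.22, with a lowest limma adjusted p of 0.518. Within slide 2, of 1 aged and 1 young female, they ran from -0.61 to 0.17, and within slide 4, which holds female aged 4 and 1 young female, from -2.94 to -0.49.

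Aging in males gave values on the other side of 0 for most of the probes. Of the 9 probes 8 averaged higher in aged than in young males and Crybb2 lower, with a median log2 difference of 0.24, against -0.022 over all tested probes. None passed limma's test, which 0.992% of tested probes passed, and 0 of 9 had an unadjusted p under 0.05, against 14.6% of tested probes. Crybb1 averaged 11.16 ± 0.85 in aged and 10.32 ± 0.93 in young males (SD, n = 4 each), a difference of 0.83 (SE 0.54, limma adjusted p = 0.507). Cryba4 differed by 0.75 (SE 0.41), with the lowest limma adjusted p of the 9, 0.42.

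Cryaa differed by 0.43 in males and Crybb3 by 0.24. The 2 Cryba1 probes stood at 0.21 and 0.40, Cryba2 at 0.17, Cryab at 0.09 and Crybb2 at -0.07. Without male aged 1 the differences ran from -0.11 to 1.26, 2 of 9 had an unadjusted p under 0.05 and the lowest limma adjusted p was 0.247. Within slide 1, which pairs male aged 1 with male young 1, they ran from -2.16 to 0.16. Within slide 3, of 2 aged and 2 young males, they ran from -0.14 to 1.84. The direction in males thus differed between the slides, and with slide as a fixed block the values ran from 0.02 to 0.80.

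**Figure D2:**
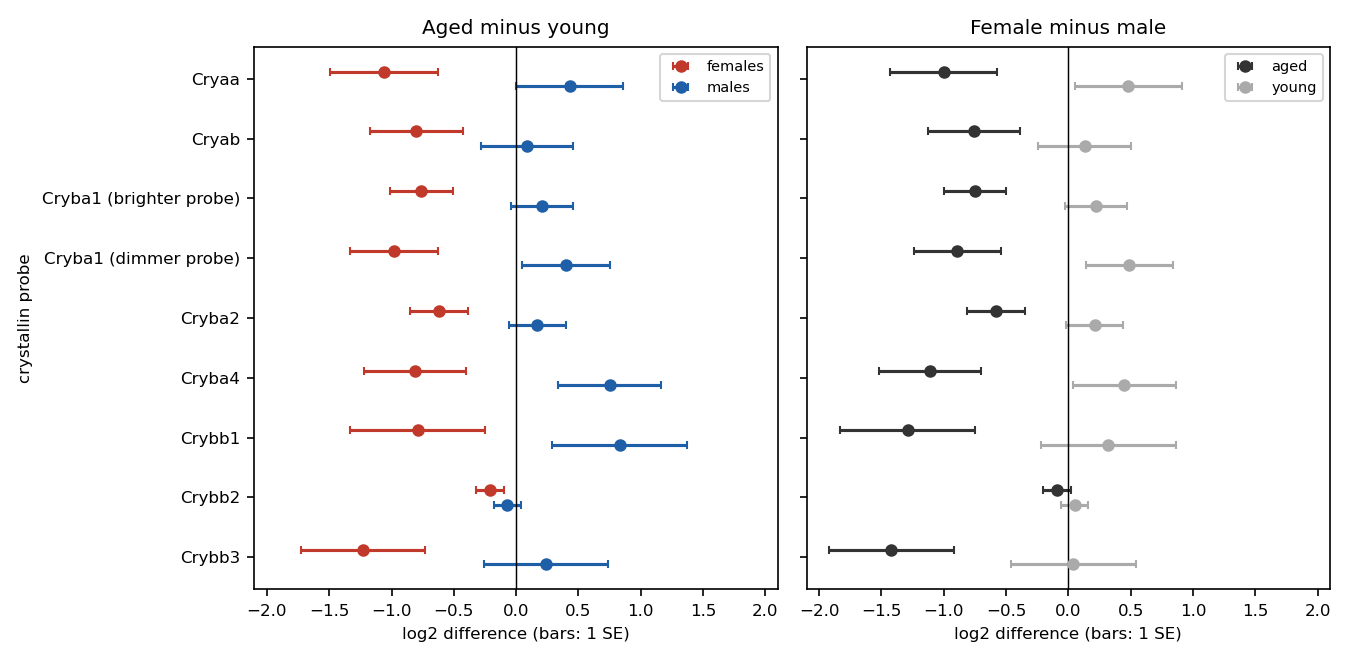
Log2 difference of each crystallin probe (horizontal axes, bars of 1 SE of limma's model): aged minus young in females and in males (left), and female minus male in aged and in young mice (right). The values in females lie between -1.23 and -0.21 and those in males between -0.07 and 0.83.

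The mean of the aging differences of both sexes had a median of -0.27 over the 9 probes, against -0.01 over all tested probes, and ran from -0.50 in Crybb3 to 0.02 in Crybb1. None of the 9 passed limma's test, which 1.88% of tested probes passed, and 0 of 9 had an unadjusted p under 0.05, against 11.1% of tested probes. Without male aged 1 the range was -0.31 to 0.24.

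The interaction of sex and age, aging in females minus aging in males, tests whether the 2 differ. All 9 values lay below 0, with a median of -1.38, against 0.021 over all tested probes. Neither the 9 crystallins nor any other tested probe passed limma's test (0%). At an unadjusted p under 0.05, 5 of the 9 were below 0, against 4.02% of tested probes that were below 0. That count was 3 with intensity trend and robust variances and 8 without female aged 2. As the probes moved largely together, these counts are not of independent results. Crybb1 stood at -1.62 (SE 0.77, limma adjusted p = 0.534), Cryba4 at -1.56 (SE 0.58, limma adjusted p = 0.509) and Crybb2 at -0.13 (SE 0.16, limma adjusted p = 0.802). The aging difference of the crystallins was therefore not shown to differ between the sexes. Without female aged 4 the values ran from -1.31 to 0.00, and without male aged 1 from -2.04 to -0.09.

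Between aged females and aged males all 9 probes averaged lower in females, with a median log2 difference of -0.89, against 0.006 over all tested probes. None passed limma's test with all arrays, which 0.686% of tested probes passed. Here too the probes are not independent, as most of them moved together. At an unadjusted p under 0.05, 7 of the 9 were lower in females, against 5.67% of tested probes that were lower. That count was 4 with intensity trend and robust variances, and the exact permutation p (two-sided) of the 9 was 0.0571 to 0.714. Aged females and aged males overlapped for all 9, where 2.86% of tested probes had females lower without overlap. Crybb3 averaged 9.73 ± 1.11 in aged females and 11.16 ± 0.74 in aged males (SD, n = 4 each), a difference of -1.42 (SE 0.50, limma adjusted p = 0.216). The brighter Cryba1 probe stood at -0.75 (SE 0.25, limma adjusted p = 0.199), Crybb1 at -1.29 and Cryba4 at -1.11.

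This difference between the aged groups moved with single arrays. Without female aged 2, the highest of the aged females for 7 of the 9 probes, 3 of the 9 passed limma's test: the dimmer Cryba1 probe at -1.28 (adjusted p = 0.0373), Cryba4 at -1.54 (adjusted p = 0.0373) and the brighter Cryba1 probe at -1.0 (adjusted p = 0.0393). Without female aged 4, 1 of 9 had an unadjusted p under 0.05, and the values ran from -1.0 to 0.04. Without male aged 1, 8 of 9 did, and the lowest limma adjusted p was 0.0893. The count was 3 without female aged 1, 3 without male aged 2 and 4 without male aged 4. Within slide 1, of 2 aged females and 1 aged male, the differences ran from -0.20 to 0.38, and within slide 4, of female aged 4 and 1 aged male, from -2.99 to -0.49. With slide as a fixed block they ran from -1.51 to -0.15.

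Between young females and young males all 9 averaged higher in females, by 0.04 to 0.49 with a median of 0.22, against -0.016 over all tested probes. None passed limma's test, which 0.393% of tested probes passed, and 0 of 9 had an unadjusted p under 0.05, against 15.6% of tested probes. The differences ran from -0.17 to 0.25 within slide 2 and from -0.03 to 0.83 within slide 3.

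The spread within the groups was unequal. The median SD of the 9 probes was 0.97 in aged females, 0.27 in young females, 0.38 in aged males and 0.54 in young males. The probes varied together. Over the 16 arrays the 28 pairs of probes without Crybb2 correlated at r = 0.69 to 0.99 and Spearman's ρ = 0.79 to 0.96, and the 8 pairs with Crybb2 at r = 0.19 to 0.65 and ρ = -0.15 to 0.05. The closest pair was Cryba4 and Crybb1, neighbours on chromosome 5, at r = 0.99. Crybb2 and Crybb3, also neighbours there, stood at r = 0.37 and ρ = -0.13. These values are a description over arrays that were normalised together, and for scale Cryaa had a median r of -0.03 with the other 15015 tested probes, of which 3.11% exceeded 0.5.

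**Figure D3:**
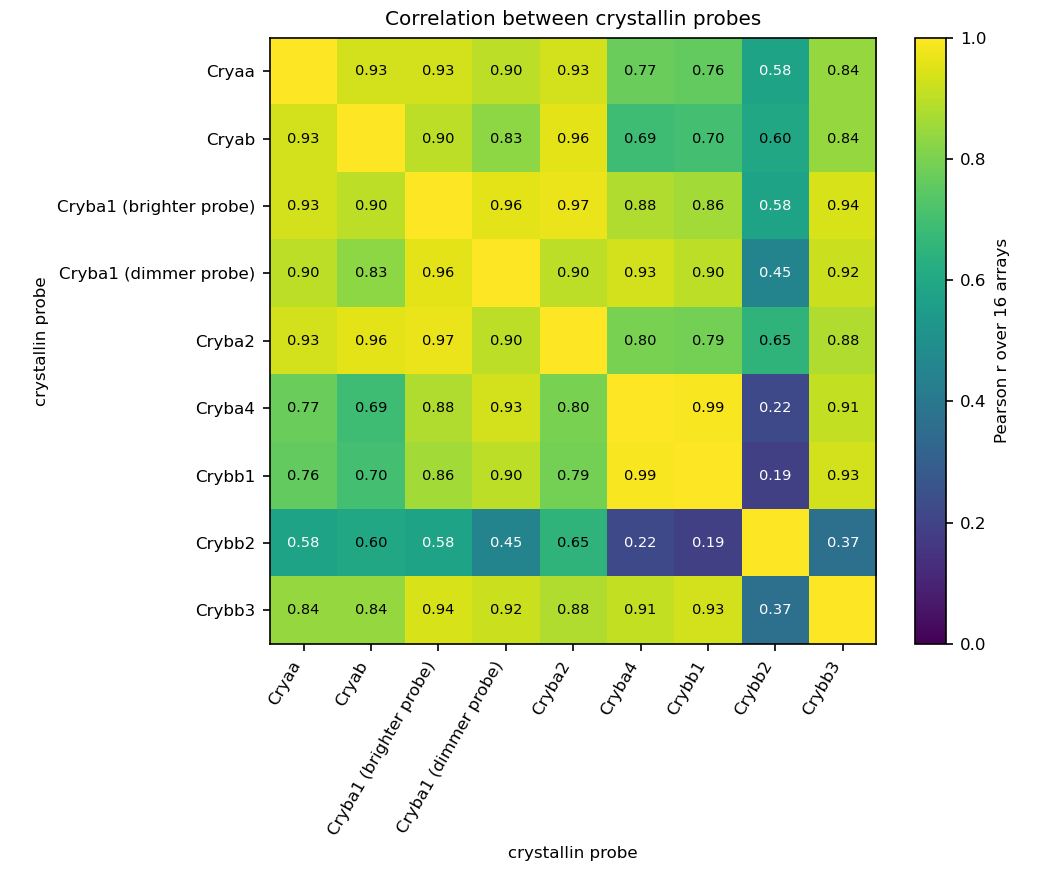
Pearson r over the 16 arrays for each pair of crystallin probes (rows and columns, colour scale of 0 to 1). Pairs without Crybb2 lie between 0.69 and 0.99, and the row of Crybb2 between 0.19 and 0.65.

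Whether Cryab and Cryba1, known from retina, moved with the lens forms was asked first with Crybb2. It was taken because its probe gave the highest mean intensity of the members other than Cryab and Cryba1. This does not rank the transcripts, as different probes are not on one scale. Roles of Crybb2 in retinal ganglion cells have been described, so it does not stand for lens alone. Against Crybb2, Cryab had r = 0.60 (permutation p = 0.0594, ρ = -0.14, p = 0.599) and Cryba1 r = 0.58 (permutation p = 0.0393, ρ = -0.06, p = 0.821), with an adjusted p of 0.104 for both r over 7 relations. Without the 2 arrays farthest in Crybb2, female aged 4 and female aged 3, r was -0.37 for Cryab and 0.01 for Cryba1. Without female aged 4 alone r was -0.38 for Cryab and -0.06 for Cryba1, and without female aged 3 alone it was 0.64 and 0.63. Both relations with Crybb2 thus rested on female aged 4.

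As Crybb2 lay at the top of the intensity scale, Cryaa was taken in its place, a choice made after the data were seen. With Cryaa, Cryab had r = 0.93 (permutation p = 1e-05, the smallest that 100000 permutations give, adjusted p = 2.33e-05 over 7 relations) and ρ = 0.94 (permutation p = 1e-05). Cryba1 had r = 0.93 (permutation p = 1e-05, adjusted p = 2.33e-05) and ρ = 0.92 (permutation p = 2e-05). These p-values do not allow for the choice of Cryaa, so they overstate the support, and the permutations ignored group and slide. Without the 2 arrays farthest in Cryaa, r was 0.83 for Cryab and 0.92 for Cryba1. No slide held the 6 arrays needed for its own r, but in deviations from the slide means r was 0.96 for Cryab and 0.95 for Cryba1, and in deviations from the group means 0.93 and 0.91. The other members had r = 0.93 (Cryba2), 0.77 (Cryba4), 0.76 (Crybb1), 0.84 (Crybb3) and 0.58 (Crybb2) with Cryaa, where ρ was 0.05 for Crybb2 and 0.79 to 0.90 for the rest. The r of Cryab and Cryba1 with Cryaa equalled that of Cryba2 and was above those of the other lens forms, and this order was not tested.

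**Figure D4:**
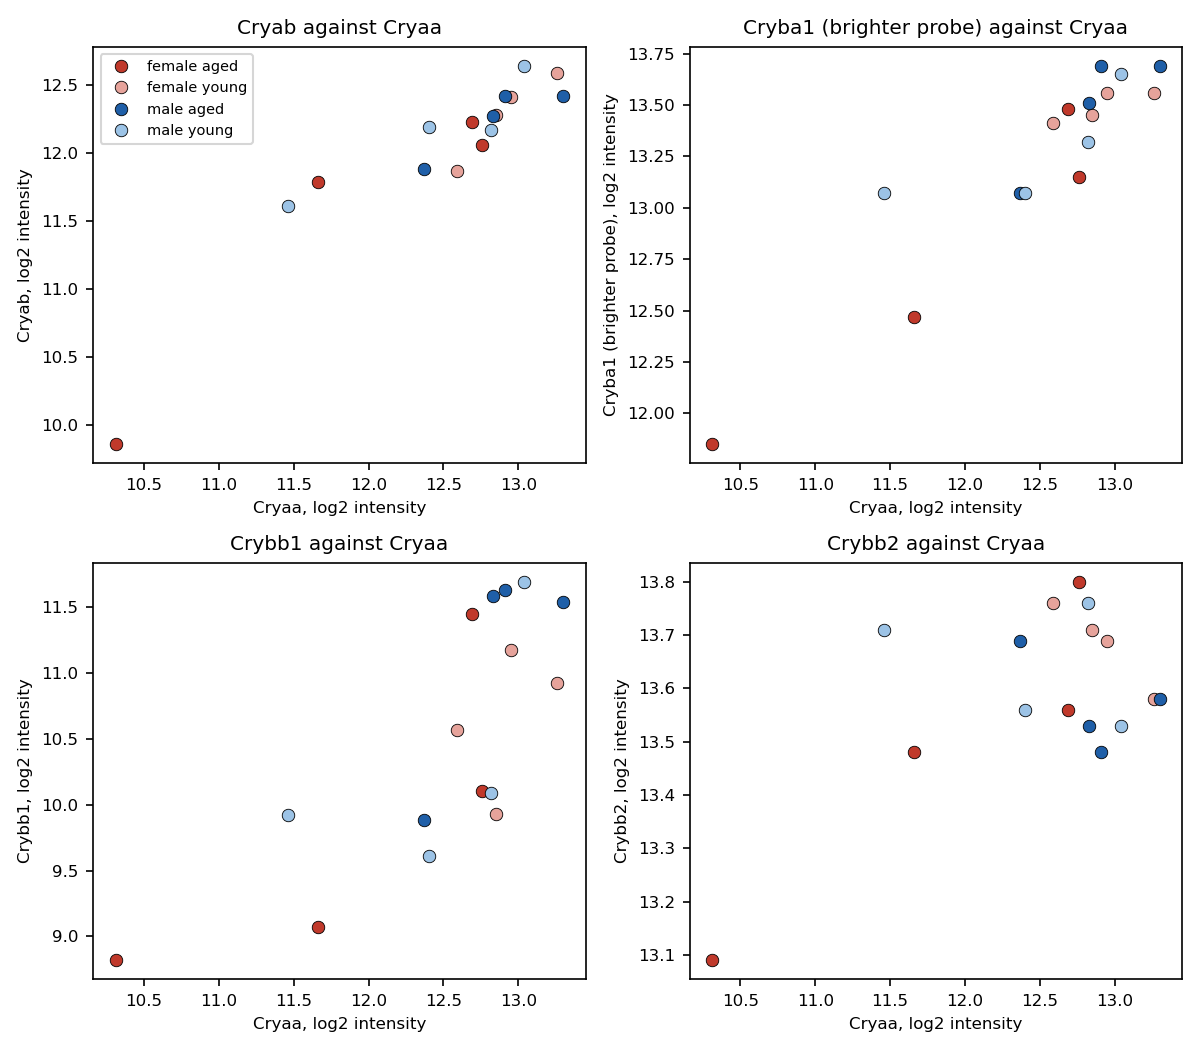
Log2 normalised intensity of Cryab, the brighter Cryba1 probe, Crybb1 and Crybb2 (vertical axes) against that of Cryaa (horizontal axes) on 16 arrays, coloured by group. Cryab and Cryba1 follow Cryaa at r = 0.93, Crybb1 at r = 0.76, and Crybb2 at r = 0.58 with female aged 4 as its low point.

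Mip, the main water channel of lens fibre membranes and no crystallin, was also taken after the data were seen. It had r = 0.97 with Cryba4, 0.96 with Crybb1, 0.90 with Crybb3 and 0.85 with Cryba1 (permutation p = 1e-05 for each), and r = 0.71 with Cryaa (permutation p = 0.00119) and 0.62 with Cryab (permutation p = 0.00428). Over these 8 relations the adjusted p for r was 0.492 for Crybb2 (r = 0.19) and at most 0.00489 for the others. As with Cryaa, the p-values leave out the choice of Mip. Without its 2 farthest arrays, female aged 1 and female aged 4, r was 0.95 with Cryba4 and with Crybb1, 0.55 with Cryaa and 0.59 with Cryab. With Crybb2 it was then -0.60 (ρ = -0.63). In deviations from the group means, r of Mip was 0.96 with Cryba4 and with Crybb1, 0.82 with Cryba1, 0.62 with Cryaa and 0.52 with Cryab.

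Other lens genes ran with the crystallins on some arrays and apart from them on others. Of 11 lens membrane and cytoskeleton genes 8 were tested and 0 passed limma's test in any of the 6 comparisons. The median log2 difference of the 8, aged minus young, was 0.19 in females and 1.53 in males. In females they ran from -0.86 (Mip, SE 0.49) to 1.81 (Lgsn, SE 0.99), where each crystallin probe averaged lower. The gap junction gene Gja3 was detected on no array. The summed intensity of the list ran from 1708 to 11882 in aged females and 3872 to 6773 in young females. It was 3023 to 12886 in aged males and 2498 to 10157 in young males. Bfsp1, which encodes a beaded filament protein of lens fibres, read 9.14 on female aged 2, 9.65, 9.49 and 9.54 on male aged 2, 3 and 4 and 9.38 on male young 1, the 5 arrays that were highest for Cryba4 and Crybb1. On the other 11 arrays Bfsp1 read 5.96 to 8.08. Lgsn, a lens protein related to glutamine synthetase, read 10.26 to 10.94 on those 5 arrays and 5.68 to 9.60 on the others.

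On female aged 4 the lens genes parted. That array was lowest for all 9 crystallin probes, but it was the sixth highest for Bfsp1 at 8.08 and for Lgsn at 9.60. For Mip it was the second lowest at 10.56, a deviation of -1.45 from the median of the 16 arrays, and Lim2 at 8.02 and Bfsp2 at 7.84 lay within 0.10 of theirs. Over the 16 arrays Cryaa had r = 0.71 with Mip, 0.53 with Lim2, 0.44 with Bfsp2, 0.33 with Bfsp1 and 0.14 with Lgsn. The part of lens RNA in the crystallin differences between groups was not tested.

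**Figure D5:**
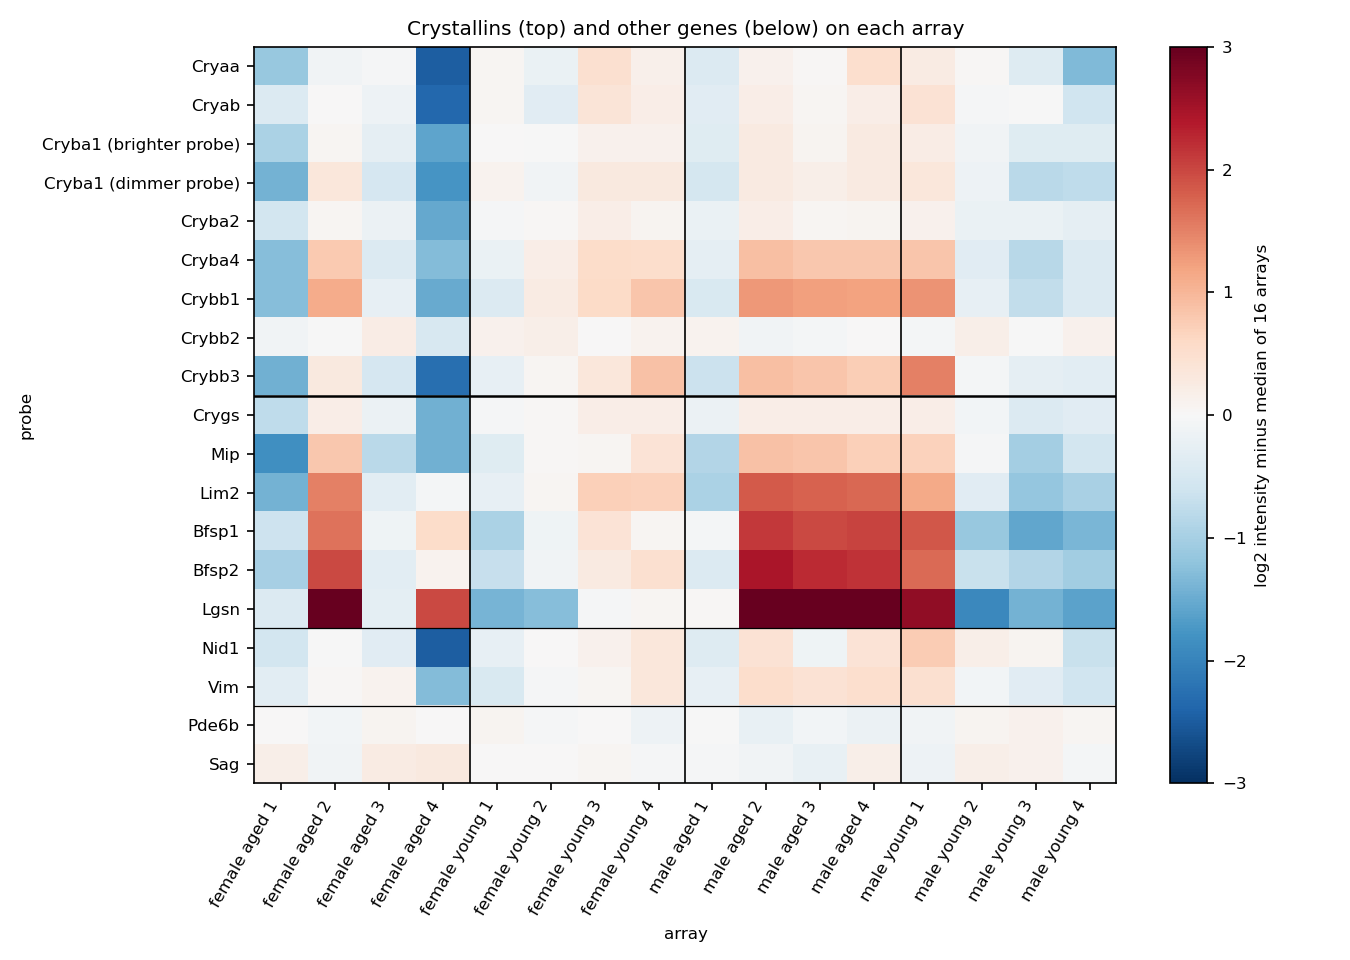
Log2 normalised intensity minus the median of the 16 arrays (colour, scale limited to -3 to 3) for the crystallin probes above the thick line, lens genes, Nid1 and Vim, and rod genes below it, on each array (columns). Cryba4, Crybb1, Mip, Lim2, Bfsp1, Bfsp2 and Lgsn are high on female aged 2, male aged 2, 3 and 4 and male young 1, and the crystallins are low on female aged 4.

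By pattern over the 16 arrays, the genes outside the family most like Cryab, by Pearson r, were Nid1 (0.96), a basement membrane protein, Pmp22 (0.93), a membrane protein known from myelin, Igfbp7 (0.92), a secreted binding protein of insulin-like growth factors, Srd5a2 (0.91), a steroid reductase, and Crygs (0.90), the gamma crystallin S. For Cryba1 they were Crygs (0.99), Srd5a2 (0.93), Nid1 (0.91), Pmp22 (0.91) and Vit (0.88). All 6 of these genes were lowest on female aged 4, as Nid1 was at 5.09 against a median of 7.57. For Crybb2 the most alike were Mcts1 (0.76), Rtn4ip1 (0.73), Lin37 (0.71), Rgcc (0.70) and Gng10 (0.70), and none of these was among the 5 of Cryab or of Cryba1. These 5 were lowest on female aged 4 as well. None of these genes passed limma's test for aging in females or in males. Crygs, at 12.16 to 13.80, and the brighter Cryba1 probe, at 11.85 to 13.69, both reached the top of the intensity scale. The part of this in their r was not tested.

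The gamma crystallins are the nearest relatives of the beta forms. Of 8 genes 5 were tested, and Cryga, Cryge and Crygf were detected on no array. Crygn, whose transcript is known from retina as well as lens, fell by 1.58 on the log2 scale in aged against young females (SE 0.31, limma adjusted p = 0.0212) and fell by 1.42 in the mean of both sexes (limma adjusted p = 0.00117). Crygb, a lens fibre form, fell by 3.57 in the mean of both sexes (SE 0.63, limma adjusted p = 0.00358). It was detected on 14 arrays and ran from 4.23 to 12.69, where the undetected Cryga read 4.21 to 4.44. The part of its lowest values in the size of this difference was not tested. The median log2 difference of the 5 was -2.01 in females and -2.30 in males. Crygs stood at -0.64 in females and 0.26 in males, both short of limma's threshold. Its probe reached 13.80, at the top of the intensity scale, and the part of this in its differences was not tested. Cryaa had r = 0.93 with Crygs, 0.58 with Crygn and 0.27 to 0.29 with Crygb, Crygc and Crygd.

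Other small heat shock proteins and the regulators of crystallin genes did not pass the test. Of 7 small heat shock protein genes 5 were tested and 0 passed in any of the 6 comparisons. The brightest of them, Hspb6, known from heart and smooth muscle, had r = -0.47 with Cryab and stood at 0.35 in aged against young females (SE 0.10, limma adjusted p = 0.172). Hspb1 had r = 0.11 with Cryab. Hspb2, the gene next to Cryab on chromosome 9, had r = 0.77 with Cryab over a range of 4.35 to 5.67, and 4.35 was its value on female aged 4. Of 11 transcription factors of crystallin genes 7 were tested and 0 passed, and Prox1 and Six3, the brightest, had r = -0.05 and -0.14 with Cryaa. Maf, from the family that recognises TGCTGA, was detected on 13 arrays at 4.52 to 5.53 and had r = 0.63 with Cryaa. Of the 4 tested genes named crystallin that belong to enzyme families, Crym, Cryz, Cryzl1 and Cryl1, 0 passed and r with Cryaa was -0.18 to 0.27.

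Markers of cell types in and around the retina gave these values beside the crystallin differences. Of the rod genes 6 were tested, 0 passed in any comparison, r with Cryaa was -0.53 to 0.28, and the summed intensity was 46031 to 56524 in aged females, 46367 to 52558 in young females, 45646 to 50310 in aged males and 46715 to 52359 in young males. Of 8 tested Müller glia genes 0 passed, the brightest, Clu and Dkk3, had r = 0.43 and 0.38 with Cryaa, the lowest r was -0.48 (Aqp4), and Vim, which lens also expresses, had r = 0.87. Of 9 tested genes of the pigment epithelium, the cell layer behind the retina, 6 rose in aged against young males by limma's test (Rpe65, Rgr, Lrat, Slc16a8, Stra6 and Rdh5). In the mean of both sexes 7 did, Ttr being added, and Rpe65 and Stra6 were lower in aged females than in aged males. Rpe65, its retinoid isomerase, rose by 1.78 in males (limma adjusted p = 0.00131). The summed intensity of that list was 1554.8 to 3557.4 in aged females, 895.1 to 7268 in young females, 6909.8 to 10639.5 in aged males and 1887.2 to 3874.7 in young males, and r with Cryaa was -0.03 to 0.32. Of the cornea genes on the array, Aldh3a1, a corneal crystallin enzyme, had r = 0.60 with Cryaa, and the keratins Krt14 and Krt5 had r = -0.49 each, Krt5 being detected on 3 arrays. Of 2 tested genes of cornea, 3 of ciliary body and iris, 2 of skeletal muscle, 3 of blood and 1 of astrocytes 0 passed. The part of these cells in the crystallin differences was not tested.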

How the data were processed

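Whole-retina RNA was measured on 16 single-colour BeadChip arrays, grouped by title, sex and age labels. The deposited intensity table holds 1 average signal for each probe on each array, per the file headers. Below 0 lay 20.7% to 24.2% of the values of an array, so a background had been subtracted, and the array means were not scaled. The detection p-value per probe was deposited in the same table, per the file headers. A second deposited table held those intensities multiplied by 1 factor per array (0.821 to 1.25). The array software and the genome build of the probes are not stated in the labels or headers. Probes were named through RefSeq symbols, which matched 24761 of 25697.

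Normalisation was by neqc (limma 3.58.1, run in R 4.3.3, with normexp background from detection p-values, offset 16, quantile normalisation, log2). Probes with detection p under 0.05 on at least 4 arrays were tested (15016 probes). A single limma model with 4 group means and 12 residual degrees of freedom gave all 6 comparisons, two-sided, with Benjamini-Hochberg adjustment over all tested probes. Correlations used 100000 permutations over all 16 arrays, across groups and slides. Named genes outside the family were the 5 with the highest r over 16 arrays with Crybb2, Cryab and Cryba1, and in each list those called, or else the 2 brightest; further genes (Lim2, Bfsp1, Bfsp2, Lgsn, Vim, Maf, Hspb2, Crygc, Crygd, Aldh3a1, Krt5) were named after their values were seen. Some genes of the lists are not reported here. The limma step was tested on simulated data with known changes. The members and lists were chosen with earlier results of these data known. Alternatives changed background correction, scaling, filter, variance model, weights, slide, replicate block and each array left out. With 4 arrays in a group, their number limits precision.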

Additional observations from a re-analysis of the deposited data

Results flagged for a closer look

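In groups of 4 arrays, 5 of 36 checks of a crystallin probe in a group found 1 array far from the other 3 by Dixon's criterion, where chance gives about 1 in 20. Male aged 1, whose age labels disagree, lay below the other aged males in 4 of them. It read 12.21 on the dimmer Cryba1 probe, where the other aged males read 12.91 to 13.00. It read 12.40 for Cryba4, against 13.48 to 13.58 in the other aged males, 9.88 for Crybb1, against 11.54 to 11.63, and 10.05 for Crybb3, against 11.43 to 11.62. Male young 1 was high for Crybb3 at 12.21, where the other young males read 10.38 to 10.64. The 5 results are not independent, as the probes move together.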

How the results depend on the processing

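The crystallin count of 0 past limma's threshold held in all 25 alternatives for aging in females, aging in males, their mean, the interaction and the sex difference in young mice. In aged mice it was 0 to 3 with 1 array left out, 3 without female aged 2. The lowest limma adjusted p of a crystallin over all alternatives was 0.0522 for aging in females, 0.192 for aging in males and 0.0373 for the sex difference in aged mice. In males Cryab ran from -0.09 to 0.26 with 1 array left out (-0.09 without male young 4), and Crybb2 was 0.02 with slide as a fixed block. All other crystallin directions for aging in females, aging in males and the interaction kept their sign.

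The correlation with Crybb2 rested on female aged 4: with 1 array left out r ran from -0.05 to 0.71 (Cryaa), -0.38 to 0.66 (Cryab), -0.06 to 0.65 (Cryba1), -0.17 to 0.72 (Cryba2), -0.27 to 0.30 (Cryba4), -0.35 to 0.26 (Crybb1) and -0.28 to 0.46 (Crybb3), the lowest each time without that array. With Cryaa in its place, chosen after the data were seen, r was 0.93 (Cryab, Cryba1, Cryba2), 0.77 (Cryba4), 0.76 (Crybb1) and 0.84 (Crybb3). With Mip, likewise, it was 0.71 (Cryaa), 0.62 (Cryab), 0.85 (Cryba1), 0.74 (Cryba2), 0.97 (Cryba4), 0.96 (Crybb1) and 0.90 (Crybb3).

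Counts over all probes moved more. Aging in females gave 95, 62 with no filter and 58 to 99 with 1 array left out. Aging in males gave 149, 97 with the stricter filter, 412 with array weights and 54 to 226 with 1 array left out, and the mean of both gave 282 and, with the stricter filter, 186. The sex difference gave 103 in aged mice, 45 with no filter, 233 with array weights, 33 with slide as a fixed block and 26 to 278 with 1 array left out. In young mice it gave 59, and 34, 187, 26 and 24 to 237 under those settings. The causes were not tested.

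Same-numbered arrays of different groups correlated at -0.341 to 0.381 in their deviations from group means, and 1 of 16 arrays was closest to its own number, so the numbers do not pair arrays. With the replicate block the counts were 79 for aging in males, 55 for the sex difference in aged and 36 in young mice, with no crystallin call gained.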

Other observations

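By pattern over the 16 arrays, a gene list for Crybb1, drawn up after its values were seen, was led by Mip (r = 0.96), Wnt7a (0.94), a secreted signalling protein, Vit (0.93), an extracellular matrix protein, Cdkn1c (0.93), a cell cycle inhibitor, and the transcript Sox1ot (0.93). Wnt7a ranged from 4.57 to 7.47 and Cdkn1c from 8.60 to 10.13 over the arrays. Mip was lowest on female aged 1 and the other 4 on female aged 4, and none passed limma's test for aging in either sex. The list of Cryaa held Crygs (0.93), Nid1 (0.91), Pmp22 (0.90), Igfbp7 (0.89) and Srd5a2 (0.89), and shared no gene with that of Crybb1.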
